A study of Mus musculus with 22 samples.

Results

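The genes followed here are 10 genes of the islet endothelium and its growth signals, taken by symbol from a table of 57010 gene rows: Vegfa, Kdr, Flt1, Pecam1, Cdh5, Plvap, Esm1, Tek, Tie1 and Eng. Where a symbol occurred in more than 1 row, the row with the highest mean was to be used. All 10 were found, and all 10 were among the 16756 genes that passed a filter on low values (at least 5 libraries at 1 TPM or more). TPM, a measure of transcript abundance, divides reads by transcript length and scales each library to the same total. The study sequenced poly(A) RNA from the islets of 22 males aged 5.5 weeks, with 1 mouse per library. WT mice carried unchanged MafA, and Het mice were heterozygous for MafA S64F, an amino acid change in a transcription factor that activates the insulin gene in beta cells. The C57 background had 5 WT and 6 Het animals, and the background called Mixed, again with 5 WT and 6 Het, is of strains that are not given in the sources used here. The labels name no transgene, Cre or treatment. Mice are numbered by accession order, which only names them. The laboratory's library numbers follow the groups, so library order and group cannot be told apart.

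Islets are densely vascularised, and their capillaries are lined by a thin, fenestrated endothelium. Beta cells and other endocrine cells secrete VEGF-A, the product of Vegfa, which acts on receptors of endothelial cells and maintains these vessels. The other genes are expressed mainly by endothelial cells and encode VEGF receptors (Kdr, Flt1), junction and surface molecules (Pecam1, Cdh5, Plvap), a secreted product (Esm1), receptors of the angiopoietin system (Tek, Tie1) and a co-receptor for BMP and TGF-beta (Eng).

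Esm1 differed most between the genotypes, with a Het level 0.481 times that of WT in C57 and 0.547 times that of WT in Mixed on the log2(TPM + 1) scale. In C57 islets 5 of the 10 genes passed the limma test at an adjusted p of 0.05, and each was lower in Het: Kdr, Flt1, Esm1, Tie1 and Eng. Of all genes tested in that comparison, 38% passed in either direction, 11.6% as lower and 26.4% as higher. In Mixed islets 1 of the 10 passed, Esm1, also lower, where 44.1% of all genes passed in either direction, 13.5% as lower and 30.7% as higher. Het and WT libraries did not overlap for 1 gene in C57, Esm1, against 21% of all genes, and for 0 in Mixed, against 23.6%. The median difference over the 10 genes was -0.37 log2 units in C57 and 0.03 in Mixed, beside 0.08 and 0.10 over all genes tested.

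Several measurements of the whole set bear on these values. In C57, Mafa itself was at 441 ± 87.6 TPM (SD, n = 5) in WT and at 117 ± 23.2 TPM (n = 6) in Het, and in Mixed at 598 ± 143 TPM and 152 ± 37.1 TPM. The islet label was borne out by 10 beta cell markers, which summed to between 251900 and 480900 TPM, against 184 to 1692 TPM for 10 acinar markers. Of 24 endothelial markers outside the 10 genes 22 passed the filter, and Vwf and Cldn5 did not. The libraries of C57 WT mice 1 and 5 stood apart. The 24 markers summed to 299.7 and 469 TPM there, against 183 to 215 TPM in the other 3 C57 WT libraries and 152 to 189 TPM in C57 Het. Pericyte markers, 12 in all, were high in the same mice, at 277 and 391 TPM against 184 to 217 TPM. Markers of other cells moved with genotype too. Sums of 11 leukocyte markers were 223 to 288 TPM in C57 WT against 126 to 190.3 TPM in C57 Het, and in Mixed they went the other way, 116 to 151 TPM in WT against 168 to 346 TPM in Het. Of 8 tested, limma called 3 lower and 0 higher in C57, and 1 lower and 6 higher in Mixed. The shares over all genes, for this list and those below, were 11.6% lower and 26.4% higher in C57. In Mixed they were 13.5% and 30.7%. C1qa weighed most in the C57 sums, with means of 178 TPM in WT and 103 TPM in Het, while Adgre1 was at 2.19 and 2.28 TPM. Sums of 8 markers of alpha, delta and PP cells were higher in Het on both backgrounds, 38820 to 81880 TPM against 97530 to 146800 TPM in C57 and 39810 to 69060 TPM against 119400 to 173500 TPM in Mixed, with 7 of 8 and 7 of 8 called higher by limma. Neither sum overlapped between the genotypes on either background. The part of these cells in the results was not tested. Results that rest on C57 WT mice 1 and 5 are given with and without them, a choice made after the data were seen. In bulk RNA, fewer cells of a type and less RNA per cell cannot be told apart. Median-of-ratios scaling moved the median over all genes to 0.005 in C57 and -0.01 in Mixed, so that small positive differences can change sign under it.

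The 10 genes spanned a wide range of levels, which TPM allows to be compared between genes. Over the 22 libraries Vegfa averaged 317.3 TPM and Plvap 247.2 TPM. Esm1 followed at 92.72 TPM, Kdr at 54.53, Eng at 49.12, Pecam1 at 31.72, Flt1 at 28.98, Tie1 at 26.22, Cdh5 at 23.37 and Tek at 10.83 TPM. Of the 9 steps in this order 3 held in 22 of 22 libraries: Plvap over Esm1, Eng over Pecam1 and Cdh5 over Tek. In 20 of 22 libraries Vegfa exceeded Plvap and Esm1 exceeded Kdr, and Kdr exceeded Eng in 19, Flt1 exceeded Tie1 in 18 and Tie1 exceeded Cdh5 in 17. Pecam1 and Flt1 did not separate, since Pecam1 was the higher of the pair in 12 of 22 libraries. The spread between mice was widest in C57 WT for 9 of the genes, with a coefficient of variation of 47.8% for Plvap, while for Esm1 it was widest in Mixed Het, at 40.5%.

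**Figure D1:**
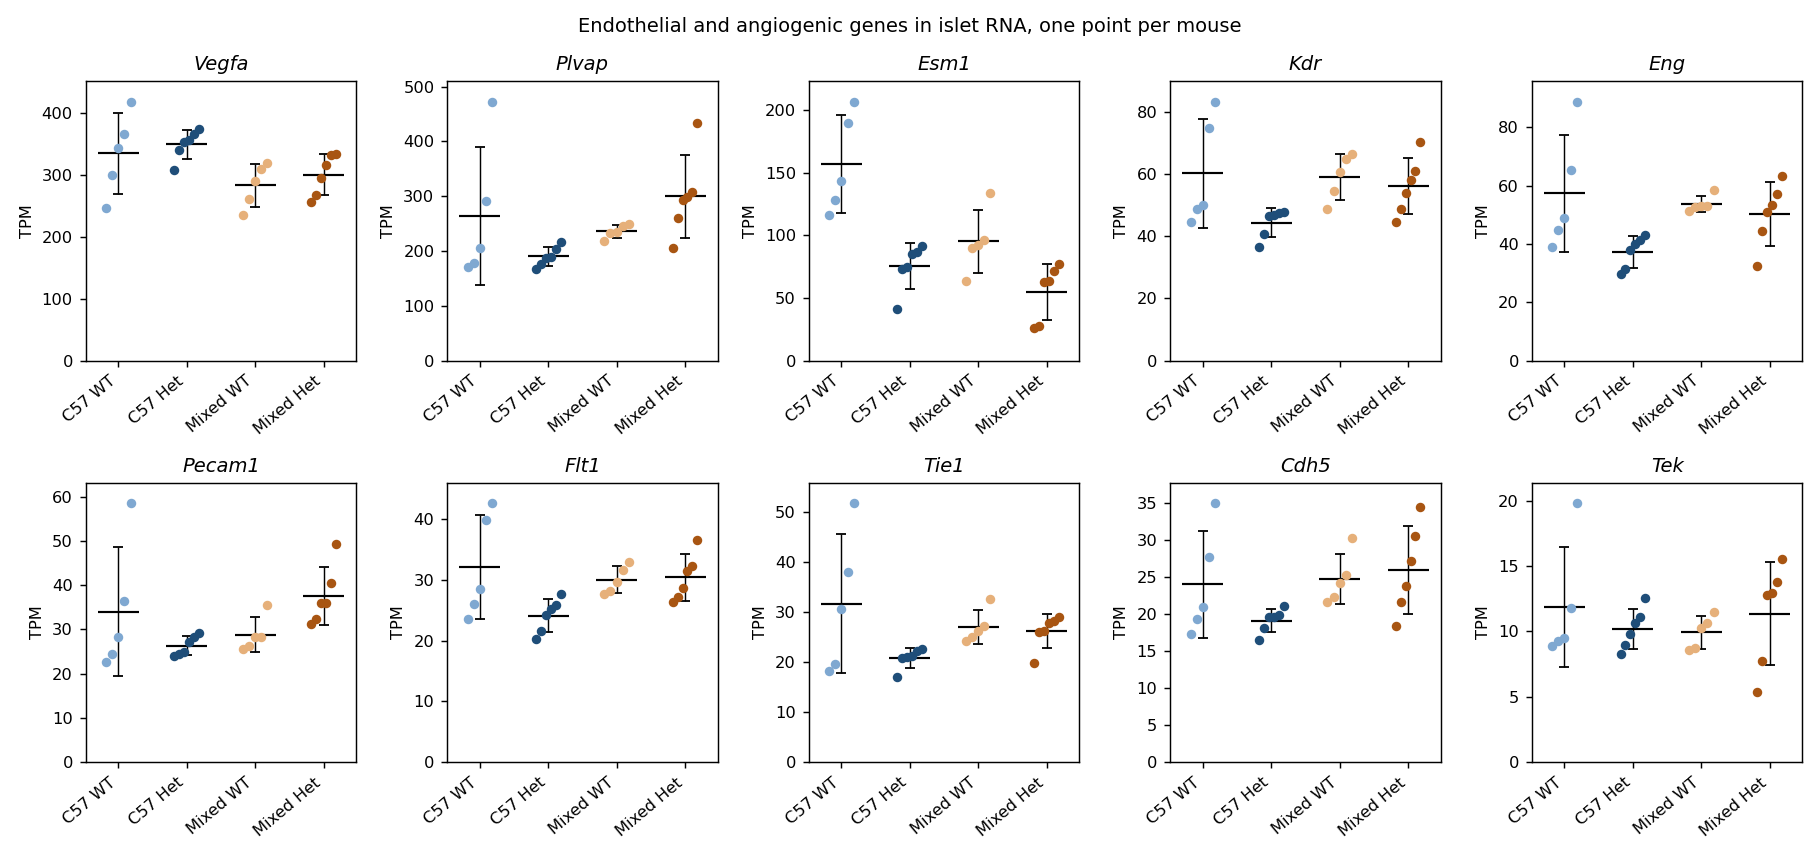
Level of each gene in TPM (vertical axes, starting at 0) in the 4 groups, with 1 point per mouse, a horizontal bar at the group mean and error bars of 1 SD. The C57 WT points spread widely for the endothelial genes, and for Esm1 both Het groups sit low, from 26.05 to 91.7 TPM.

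Vegfa (ENSMUSG00000023951), the ligand, passed the test in neither genotype comparison. C57 WT mice 1 to 5 had 418, 299, 343, 365 and 246 TPM, and the 6 C57 Het mice ran from 308 to 374 TPM with a median of 354. All Het values lay within the WT range, and the lowest WT value belonged to mouse 5, the library highest in endothelial markers. Mixed WT mice had 289, 309.7, 235, 261 and 319.6 TPM, and Mixed Het mice ran from 256 to 334 TPM with a median of 306, which overlapped widely. The Het minus WT difference was 0.08 (SE 0.11, limma adjusted p = 0.591) for C57 mice and, for Mixed mice, 0.09 (SE 0.11, adjusted p = 0.555), and in both it was negative under median-of-ratios scaling, quantile normalization and a total without the most abundant genes.

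Kdr (ENSMUSG00000062960) encodes VEGFR2, the receptor that carries most VEGF-A signalling in endothelium. C57 WT mice 1 to 5 had 74.9, 48.8, 44.6, 49.98 and 83.3 TPM, and C57 Het mice ran from 36.4 to 47.9 TPM with a median of 46.8. Mice 1 and 5 stood far above the Het libraries, mice 2 and 4 just above them, and mouse 3 among them. The difference was -0.40 (SE 0.14, limma adjusted p = 0.0342). It did not pass without WT mouse 1 (-0.31, adjusted p = 0.113), WT mouse 5 (-0.27, adjusted p = 0.137), Het mouse 3 (adjusted p = 0.0748) or Het mouse 4 (adjusted p = 0.0629), and without WT mice 1 and 5 it was -0.11 (adjusted p = 0.582). Mixed WT mice had 66.5, 64.8, 54.6, 48.8 and 60.6 TPM, and Mixed Het mice ran from 44.7 to 70.3 TPM with a median of 55.99. These groups overlapped throughout, with a difference of -0.08 (SE 0.14, adjusted p = 0.692).

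Flt1 (ENSMUSG00000029648) encodes VEGFR1, which binds VEGF-A tightly and acts in part as a decoy. Its C57 WT values were 39.9, 26.1, 23.5, 28.5 and 42.6 TPM for mice 1 to 5, and C57 Het mice ran from 20.3 to 27.6 TPM with a median of 24.7. Mice 1 and 5 were again the high libraries, and mice 2 and 3 lay within the Het range. The difference was -0.37 (SE 0.13, limma adjusted p = 0.0257). Without WT mouse 1 its adjusted p was 0.0916, without WT mouse 5 0.104, without Het mouse 3 0.057 and without Het mouse 4 0.0533, and without WT mice 1 and 5 the difference was -0.11 (adjusted p = 0.508). Mixed WT mice had 32.9, 31.6, 28.2, 27.6 and 29.6 TPM, and Mixed Het mice ran from 26.4 to 36.6 TPM with a median of 29.99. The Mixed groups did not separate, at 0.01 as deposited (SE 0.13, adjusted p = 0.944) and -0.12 under median-of-ratios scaling.

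Esm1 (ENSMUSG00000042379), or endocan, is a proteoglycan secreted by endothelial cells, known as a VEGF-induced gene and a marker of tip cells, the leading cells of a vessel sprout. C57 WT mice 1 to 5 had 189.7, 116, 128, 144 and 207 TPM, and C57 Het mice ran from 41.5 to 91.7 TPM with a median of 79.7. Every C57 Het library lay below every C57 WT library. Group means were 157 ± 39.2 TPM (SD, n = 5) and 75.4 ± 18.1 TPM (n = 6), a difference of -1.06 (SE 0.27, limma adjusted p = 0.00435). Without WT mouse 5 it was -0.95 (adjusted p = 0.017), and without WT mice 1 and 5 it was -0.81 (adjusted p = 0.0726) and no longer passed.

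In Mixed WT, Esm1 values were 95.9, 92.2, 133, 63.6 and 89.99 TPM. Mixed Het mice ran from 26.05 to 76.96 TPM with a median of 63.00, and mice 3 and 5 were the lowest, at 26.05 and 27.7 TPM. The groups overlapped only through WT mouse 4, which lay below Het mice 1 and 6. Group means were 95.03 ± 24.9 TPM (SD, n = 5) and 54.6 ± 22.1 TPM (n = 6), a difference of -0.87 (SE 0.27, limma adjusted p = 0.0127). It passed in 22 of 22 alternative settings, left-out libraries included, with adjusted p-values from 0.00419 to 0.0445. The C57 difference passed in 21 of 23.

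Sequences upstream of Esm1, Kdr and Flt1 are shown because Kdr and Flt1 varied together most closely of all pairs of the 10 genes, while Esm1 differed most by genotype. They come from RefSeq, build GRCm38.p6, where 7 of the 10 genes had an entry. Each is the 250 bases before the annotated start, 5′ to 3′ on the strand of the gene. Capitals mark GGAAG, a form of the site bound by ETS-family factors, which act widely in endothelial genes, or its complement CTTCC. Other forms of that site were not searched. Esm1 lies on the plus strand at chr13:113209409-113209658, Kdr on the minus strand at chr5:75978456-75978705 and Flt1 on the minus strand at chr5:147726012-147726261.
Esm1: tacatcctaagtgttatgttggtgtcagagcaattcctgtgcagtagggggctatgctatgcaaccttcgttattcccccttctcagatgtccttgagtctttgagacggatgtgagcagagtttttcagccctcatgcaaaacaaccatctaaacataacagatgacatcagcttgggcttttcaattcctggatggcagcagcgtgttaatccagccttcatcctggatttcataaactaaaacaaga
Kdr: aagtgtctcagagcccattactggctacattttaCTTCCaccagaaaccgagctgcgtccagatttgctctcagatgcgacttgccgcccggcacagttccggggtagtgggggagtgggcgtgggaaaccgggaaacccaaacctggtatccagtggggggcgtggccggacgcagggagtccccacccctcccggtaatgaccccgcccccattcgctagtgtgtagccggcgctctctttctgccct
Flt1: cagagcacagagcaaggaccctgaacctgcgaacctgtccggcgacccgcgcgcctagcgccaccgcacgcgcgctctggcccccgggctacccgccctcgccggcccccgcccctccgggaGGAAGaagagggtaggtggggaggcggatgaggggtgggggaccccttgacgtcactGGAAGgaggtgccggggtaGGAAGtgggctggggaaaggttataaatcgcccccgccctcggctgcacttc

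The Flt1 window held 3 matches to GGAAG on either strand, the Kdr window 1 and the Esm1 window 0. These counts do not cover other forms of the ETS site. Of 32851 windows of the same length in the RefSeq table, 64.1% held GGAAG on either strand. The hypoxia response core ACGTG and the MAF half-site TGCTGA, held by 16.6% and 16.1% of windows on either strand, had 0 matches in these 3 sequences. The 3 motifs were searched separately, without regard to overlap. G and C made up 44.0% of the Esm1 window, 61.6% of the Kdr window and 70.4% of the Flt1 window. A match describes letters only, and binding was not measured.

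Pecam1 (ENSMUSG00000020717), also CD31, is an adhesion molecule of endothelial junctions. C57 WT mice 1 to 5 had 36.3, 24.4, 22.7, 28.3 and 58.5 TPM, and C57 Het mice ran from 23.9 to 29.1 TPM with a median of 26.1. Only WT mice 1 and 5 exceeded the Het range, and the difference of -0.28 did not pass (SE 0.17, limma adjusted p = 0.21). Mixed WT mice had 28.2, 35.5, 26.2, 25.7 and 28.4 TPM, and Mixed Het mice ran from 31.3 to 49.4 TPM with a median of 35.97. All WT mice but mouse 2 lay below the lowest Het library. This difference of 0.36 did not pass either (SE 0.17, limma adjusted p = 0.0856).

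Plvap (ENSMUSG00000034845) forms the diaphragms that span endothelial fenestrae, the pores of islet capillaries. Its C57 WT values were 291, 179, 171, 206 and 472 TPM for mice 1 to 5, and C57 Het mice ran from 167 to 216 TPM with a median of 189. Mouse 5 had more Plvap than any other of the 22 libraries. The difference was -0.36 (SE 0.20, limma adjusted p = 0.15), and 0.04 without WT mice 1 and 5. Mixed WT mice were close together, at 234, 248, 234, 219 and 246 TPM, and Mixed Het mice ran from 206 to 434 TPM with a median of 296. The Mixed difference was 0.31 (SE 0.20, adjusted p = 0.211).

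Cdh5 (ENSMUSG00000031871), VE-cadherin, builds the adherens junctions of endothelium. It ran from 17.3 to 34.9 TPM in C57 WT, 16.4 to 21.05 in C57 Het, 21.6 to 30.2 in Mixed WT and 18.4 to 34.5 in Mixed Het. The differences did not pass, at -0.27 (SE 0.16, limma adjusted p = 0.173) for C57 mice and, for Mixed mice, 0.05 (SE 0.16, adjusted p = 0.825), the latter -0.08 under median-of-ratios scaling. Tek (ENSMUSG00000006386) encodes TIE2, the angiopoietin receptor, and had the lowest mean of the 10 genes. It ran from 8.93 to 19.8 TPM in C57 WT, 8.24 to 12.5 in C57 Het, 8.55 to 11.5 in Mixed WT and 5.34 to 15.6 in Mixed Het. Its differences were -0.15 (SE 0.21, limma adjusted p = 0.612) for C57 mice and, for Mixed mice, 0.11 (SE 0.21, adjusted p = 0.701), the latter -0.01 under median-of-ratios scaling.

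Tie1 (ENSMUSG00000033191) encodes a receptor that modulates TIE2. C57 WT mice 1 to 5 had 38.1, 18.3, 19.7, 30.7 and 51.8 TPM, and C57 Het mice ran from 17.02 to 22.6 TPM with a median of 21.2. WT mice 1, 4 and 5 lay above the Het range and mice 2 and 3 inside it. The difference was -0.48 (SE 0.18, limma adjusted p = 0.0427) and passed in 9 of 23 alternatives, the fewest of the 5 called genes. It was lost without any of WT mice 1, 4 and 5 and Het mice 1, 2, 4, 5 and 6, with adjusted p-values from 0.0514 to 0.177, and was -0.10 (adjusted p = 0.69) without WT mice 1 and 5. Mixed WT mice had 26.2, 32.7, 24.2, 27.3 and 25.1 TPM, and Mixed Het mice ran from 19.9 to 29.04 TPM with a median of 27.1. Those groups overlapped, with a difference of -0.05 (SE 0.18, adjusted p = 0.856).

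Eng (ENSMUSG00000026814), endoglin, is a co-receptor for BMP and TGF-beta ligands in endothelium. C57 WT mice 1 to 5 had 65.3, 44.7, 38.96, 49.00 and 88.8 TPM, and C57 Het mice ran from 29.8 to 43.2 TPM with a median of 38.9. Mouse 3 was the only C57 WT library inside the Het range. The difference was -0.56 (SE 0.17, limma adjusted p = 0.0143) and passed in 19 of 23 alternatives. It was -0.39 (adjusted p = 0.0612) without WT mouse 5, and -0.25 (adjusted p = 0.278) without WT mice 1 and 5. Mixed WT mice had 52.8, 58.4, 53.1, 53.1 and 51.3 TPM, and Mixed Het mice ran from 32.3 to 63.4 TPM with a median of 52.1. The WT values lay within the Het range, with a difference of -0.12 (SE 0.17, adjusted p = 0.589).

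**Figure D2:**
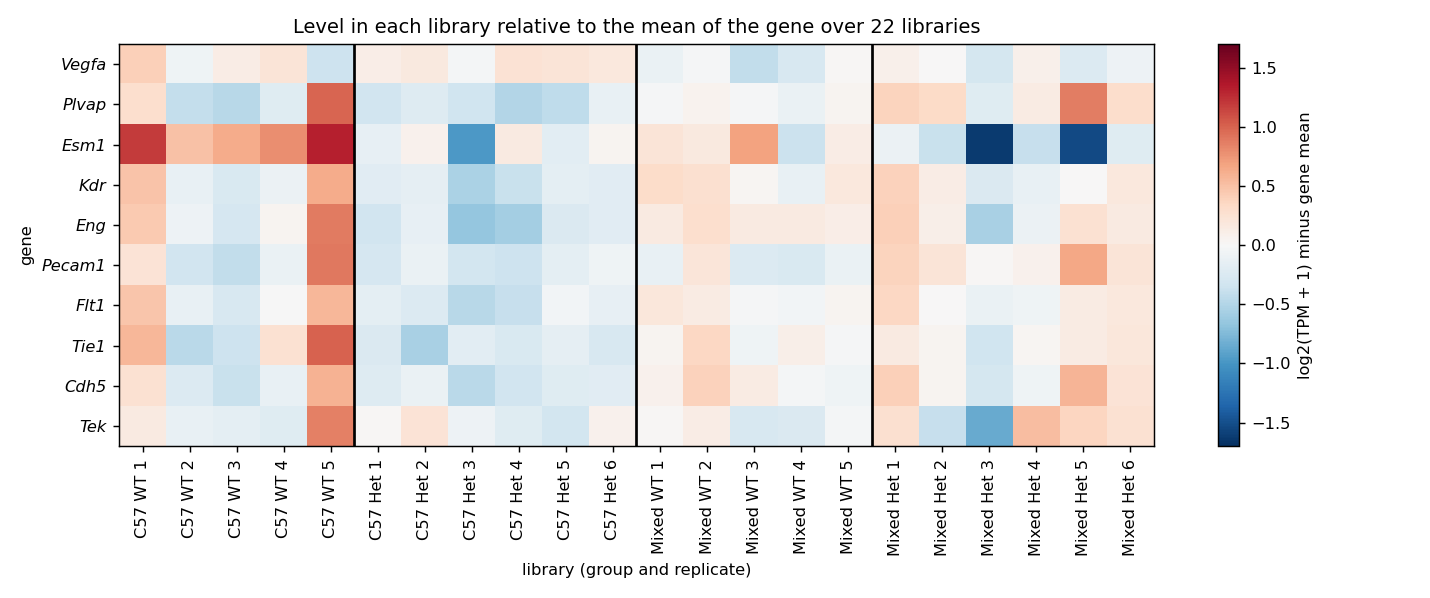
Colour gives the log2(TPM + 1) of each gene (rows) in each library (columns, in 4 groups divided by lines) minus the mean of that gene over 22 libraries. C57 WT 1 and C57 WT 5 are red in the endothelial rows, and Esm1 is deep blue in Mixed Het 3 and 5, at -1.62 and -1.54.

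The number of the 10 genes that passed in C57 depended on single libraries. It was 1 without WT mouse 5, leaving Esm1, 2 without WT mouse 1, 2 without Het mouse 4 and 3 without Het mouse 3. Without WT mice 1 and 5 it was 0 in limma, with 1 at an unadjusted p under 0.05. A fit with the mean score of the 24 other endothelial markers as a covariate, added after the data were seen, gave 0 in C57, with 1 at an unadjusted p under 0.05, and Esm1 at -0.77 (limma adjusted p = 0.0673). In Mixed the same fit kept Esm1 lower, at -0.89 (adjusted p = 0.00791), and Pecam1 and Plvap passed as higher in Het, at 0.34 (adjusted p = 0.000571) and 0.28 (adjusted p = 0.00184). Acinar markers moved with genotype as well, 9 of 10 higher in C57 Het and 3 of 10 in Mixed Het. With the acinar score as a covariate 4 of the 10 genes passed in C57 and 1 in Mixed. With sample weights 1 passed in C57.

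**Figure D3:**
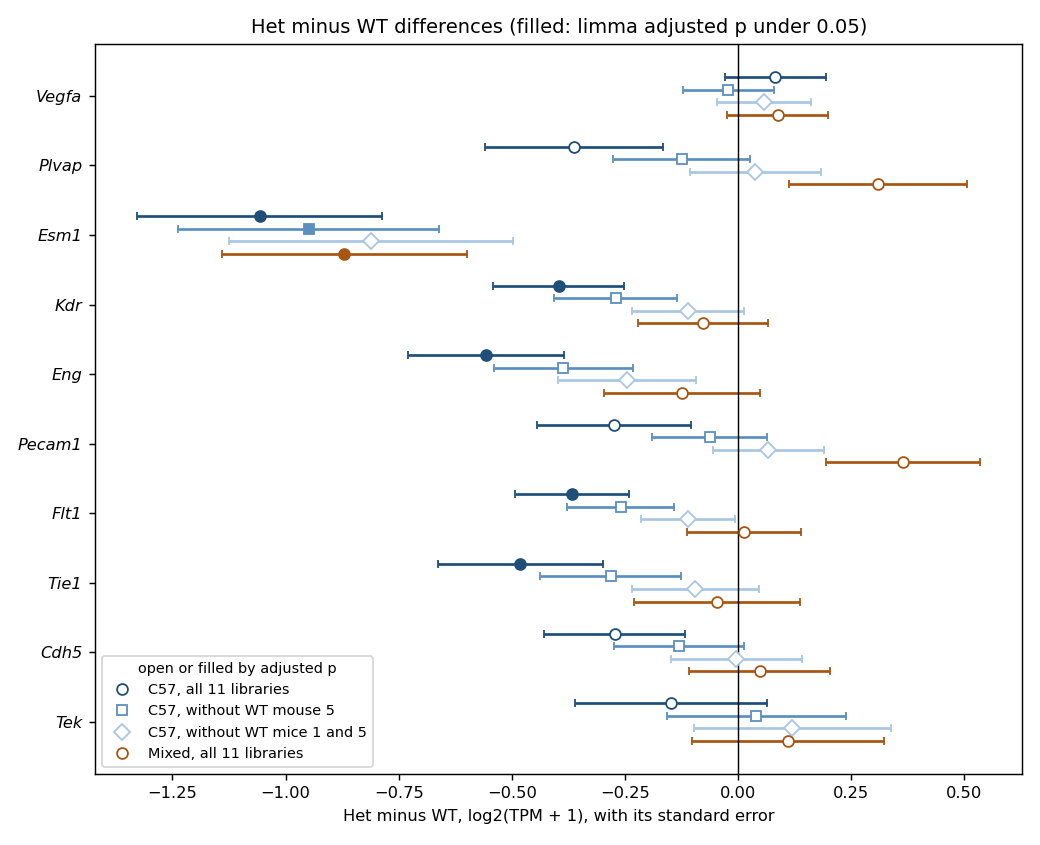
Het minus WT difference of each gene (horizontal axis, log2(TPM + 1), bars of 1 standard error), filled where the limma adjusted p was under 0.05. Dark blue circles use all C57 libraries, lighter squares leave out WT mouse 5, the lightest diamonds leave out WT mice 1 and 5, and brown circles use the Mixed libraries. Esm1 stays between -1.06 and -0.81, while the other C57 differences move toward or past 0.

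Whether the genotype difference depended on background was tested by the interaction, the Mixed difference minus the C57 difference. It passed for 0 of the 10 genes in limma, with 3 at an unadjusted p under 0.05, where 7.36% of all genes passed. Those 3 were Plvap at 0.67 (SE 0.28, adjusted p = 0.131), Pecam1 at 0.64 (SE 0.24, adjusted p = 0.0999) and Flt1 at 0.38 (SE 0.18, adjusted p = 0.181). Without C57 WT mice 1 and 5 they were at 0.27, 0.30 and 0.12. The Esm1 interaction was 0.19 (SE 0.38, adjusted p = 0.793), and its standard error leaves room for a sizeable difference between the backgrounds.

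Backgrounds were also compared within each genotype. In WT mice 0 of the 10 genes passed in limma, with 1 at an unadjusted p under 0.05, where 11.3% of all genes passed. That gene was Esm1, at -0.72 for Mixed minus C57 (SE 0.28, adjusted p = 0.104). In Het mice 2 of the 10 passed, both higher in Mixed, where 20.5% of all genes passed in either direction and 13.3% as higher. They were Plvap at 0.62 (SE 0.19, limma adjusted p = 0.0211) and Pecam1 at 0.48 (SE 0.16, adjusted p = 0.0377). Pecam1 was the 1 gene whose Het groups did not overlap, against 9.85% of all genes. A fit on the Het libraries alone called 6 of the 10 as higher and 1 as lower, and sample weights called 7 as higher and 2 as lower. The shares of all genes called in these 2 fits are not given here. The larger counts therefore cannot be read as particular to these genes.

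The Plvap call was lost without Mixed Het mouse 5, at 0.51 (limma adjusted p = 0.064), and under quantile normalization, at 0.50 (adjusted p = 0.0656). The Pecam1 call was lost without any of Mixed Het mice 1, 2, 5 and 6 and C57 Het mice 1, 3, 4 and 5, with adjusted p-values from 0.055 to 0.104, and under median-of-ratios scaling (adjusted p = 0.0607). Mixed Het mouse 5 also had the highest sum of the 24 other endothelial markers among Mixed libraries, 292 TPM, and of the 12 pericyte markers, 357 TPM. Mixed Het mouse 3 had the lowest of both, 149.8 and 142 TPM. With the endothelial score as a covariate, Plvap was at 0.20 (adjusted p = 0.0798) and Pecam1 at 0.13 (adjusted p = 0.333).

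A ratio of 2 genes within a library does not depend on the library total. For 6 ratios in 4 comparisons, 24 two-sided exact permutation tests were adjusted together. Esm1 relative to Pecam1 was 3.35 ± 1.05 (SD, n = 5) in Mixed WT and 1.49 ± 0.628 (n = 6) in Mixed Het, without overlap. The log2 ratio differed by -1.24 (exact permutation p = 0.00433, adjusted p = 0.0346). Both genes entered this difference. Between Mixed WT and Mixed Het, mean Esm1 went from 95.03 to 54.65 TPM and mean Pecam1 from 28.81 to 37.57 TPM. Esm1 alone overlapped between these groups. In C57 the ratio was 4.85 ± 0.801 in WT and 2.86 ± 0.695 in Het, with overlap, and the difference of -0.78 missed the threshold (exact permutation p = 0.00866, adjusted p = 0.0519). Without C57 WT mice 1 and 5 that difference was -0.88. The remaining WT ratios, 4.78 to 5.65, all exceeded the Het ratios, 1.69 to 3.84. WT mouse 5, at 3.53, had been the only WT library inside the Het range. This separation therefore followed from leaving that mouse out. The exact permutation p was then the smallest that so few libraries allow, so its adjusted value of 0.114 cannot decide whether the difference holds.

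Eng relative to Cdh5 was 2.36 ± 0.108 (SD, n = 5) in C57 WT and 1.94 ± 0.139 (n = 6) in C57 Het, and no Het library reached the WT range. The log2 ratio differed by -0.28 (exact permutation p = 0.00433, adjusted p = 0.0346). Without WT mice 1 and 5 it differed by -0.24, and the remaining WT ratios, 2.25 to 2.35, still exceeded the highest Het ratio, 2.08. The adjusted p of 0.114 (exact permutation) again came from the smallest p available and cannot decide whether the difference holds. In Mixed this ratio was 2.19 ± 0.188 and 1.94 ± 0.196, a difference of -0.17 that did not pass (exact permutation p = 0.0649, adjusted p = 0.19). Vegfa relative to Kdr, the ligand to its main receptor, was 7.93 ± 0.75 in C57 Het and 5.42 ± 0.781 in Mixed Het, without overlap (log2 difference -0.55, exact permutation p = 0.00216, adjusted p = 0.0346). Flt1 relative to Kdr had group means of 0.535, 0.544, 0.511 and 0.545 for WT and Het in C57 and then in Mixed, and it passed in none of its 4 comparisons. With any 1 library left out, the log2 difference ran from -1.34 to -0.99 for Esm1/Pecam1 in Mixed, from -0.30 to -0.25 for Eng/Cdh5 in C57 and from -0.61 to -0.50 for Vegfa/Kdr between the Het groups. The exact permutation adjusted p then ran from 0.0416 to 0.0519, from 0.0476 to 0.0649 and from 0.0346 to 0.0519, since smaller groups raise the smallest p that can be had, so most single omissions end these calls.

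**Figure D4:**
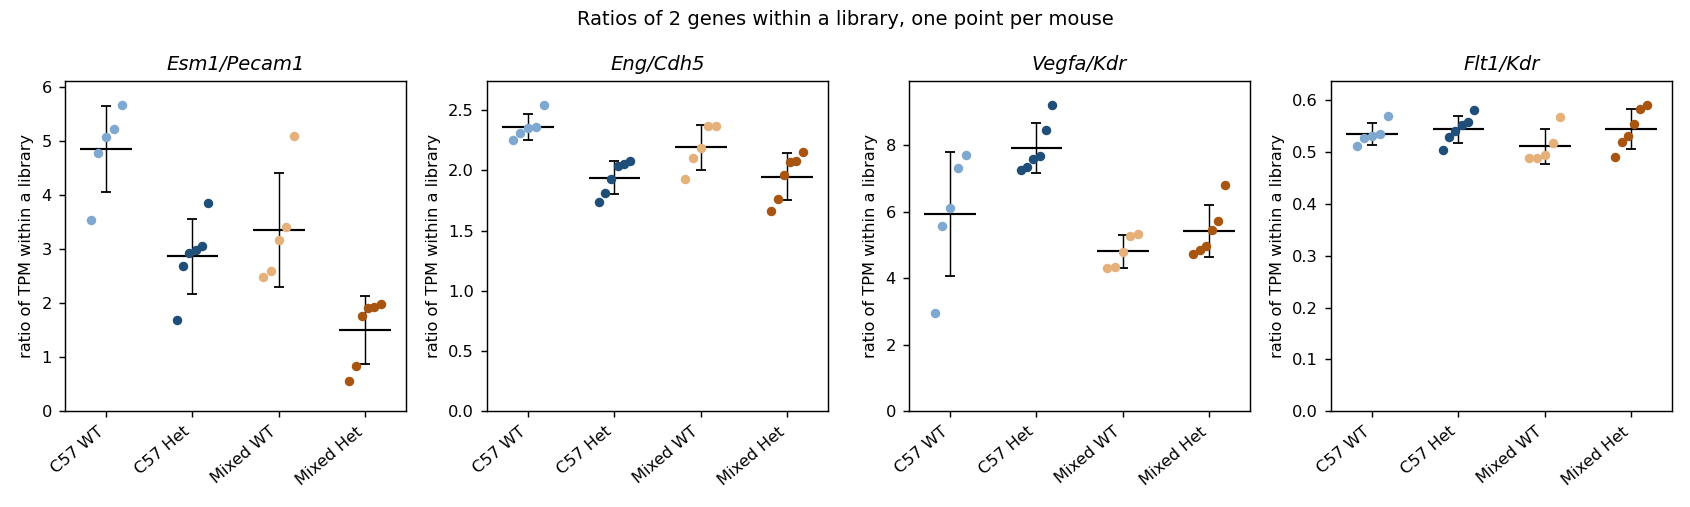
Ratio of the TPM of 2 genes within each library (vertical axes, starting at 0) in the 4 groups, with 1 point per mouse, the group mean and error bars of 1 SD. Esm1/Pecam1 separates Mixed WT from Mixed Het, Eng/Cdh5 separates C57 WT from C57 Het, Vegfa/Kdr separates the Het groups, and Flt1/Kdr stays between 0.488 and 0.59.

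Correlations of the deviations from the group means over 22 libraries are given as descriptions, since the points share libraries and their composition. Kdr and Flt1 were the closest pair (Pearson r = 0.951, Spearman rho = 0.941, and r = 0.891 without C57 WT mice 1 and 5). Pecam1 and Plvap followed at r = 0.946, and Cdh5 and Eng at 0.926. Vegfa had r between -0.239 and 0.33 with the other 9 genes, and between 0.102 and 0.551 without C57 WT mice 1 and 5. Esm1 was closest to Kdr (r = 0.636) and farthest from Pecam1 (r = 0.253, and -0.002 without the same 2 mice).

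Among 10648 genes with a mean TPM of at least 5, those whose deviations from the group means over the 22 libraries were most like those of Cdh5 were Wwtr1 (0.95), Msn (0.95), Rasgrp3 (0.941), Lamb1 (0.941) and Ehd2 (0.94), by Pearson r. Those most like Vegfa were Ttc4 (0.912), Zfp157 (0.91), Bcl7a (0.908), Acaa1a (0.893) and Rbm5 (0.882). For Esm1, examined after its values were seen, the closest was Nid2 (0.774), followed by Adgrl4 (0.771).

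Other ligands and receptors of the VEGF family were listed besides the 10 genes, and 6 of 7 were tested. In C57 1 fell and 0 rose, and in Mixed 1 fell and 2 rose. Over all genes 11.6% fell and 26.4% rose in C57, and 13.5% fell and 30.7% rose in Mixed. These shares also stand beside the counts of each list that follows. Vegfc, a ligand best known for lymphatic growth, rose from 2.59 ± 0.669 TPM (n = 5) in Mixed WT to 5.74 ± 0.783 TPM (n = 6) in Mixed Het without overlap (0.92, SE 0.11, limma adjusted p = 1.57e-06). Pgf, placental growth factor and a ligand of FLT1, rose by 0.59 in Mixed (SE 0.13, adjusted p = 0.00087). In C57 they were at 0.18 (adjusted p = 0.22) and -0.13 (adjusted p = 0.434), and both interactions passed, at 0.74 (adjusted p = 0.00937) and 0.72 (adjusted p = 0.0221). Without C57 WT mice 1 and 5 these interactions were 0.69 (adjusted p = 0.0383) and 0.84 (adjusted p = 0.0181). Flt4, the receptor for VEGF-C, fell by 0.50 in C57 (adjusted p = 0.0087) and was at -0.25 (adjusted p = 0.2) without WT mice 1 and 5.

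A list of 7 genes held angiopoietin and angiopoietin-like genes and Ptprb. Of these 4 were tested, and 1 rose and 1 fell in C57, while 2 rose in Mixed. Angpt2, an endothelial ligand that can antagonise TIE2, fell from 5.71 ± 0.792 TPM to 4.09 ± 0.481 TPM in C57 (-0.40, SE 0.13, limma adjusted p = 0.0178). The lowest WT value, 4.67 TPM, lay barely above the highest Het value, 4.6669 TPM. Without WT mice 1 and 5 the difference was -0.36 (adjusted p = 0.0995). Angptl7, an angiopoietin-like secreted protein, rose in both backgrounds, by 3.60 (adjusted p = 8.98e-06) and by 1.54 (adjusted p = 0.0122). Its second rise, that of Mixed mice, was widened by WT mouse 4, which had 4.92 TPM. The other Mixed WT mice had 33.0 to 57.1 TPM. Mixed Het mouse 2, at 29.9 TPM, lay below all of these others, so the Mixed groups overlapped. Angptl2, of the same family, rose by 0.71 in Mixed (adjusted p = 0.00429) and was at -0.09 (adjusted p = 0.749) in C57.

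Of the 22 tested endothelial markers outside the 10 genes, 12 fell and 0 rose in C57, with a median of -0.49, and 1 fell and 1 rose in Mixed, with a median of -0.02. In C57 5 fell without WT mouse 5. Without WT mice 1 and 5 limma called 0, with 1 at an unadjusted p under 0.05 and a median of -0.14. Egfl7, a secreted vascular factor, fell from 22.4 ± 14.1 TPM to 9.70 ± 0.553 TPM in C57 (-0.95, SE 0.24, limma adjusted p = 0.00462) and was at -0.43 (adjusted p = 0.091) without those mice. Gpihbp1, which anchors lipoprotein lipase on capillaries, fell by 0.84 (adjusted p = 0.0116), and Sox18, an endothelial transcription factor, by 0.71 (adjusted p = 0.0234). Without the same mice they were at -0.33 and -0.37 (adjusted p = 0.277 and 0.306). Nos3, endothelial nitric oxide synthase, had an interaction of 0.86 (adjusted p = 0.0279), and 0.52 (adjusted p = 0.099) without them. Robo4, an endothelial guidance receptor named after its values were seen, fell in both backgrounds, by 0.66 in C57 (adjusted p = 0.0144, and 0.32 without those mice) and by 0.56 in Mixed (adjusted p = 0.03, and 0.0756 without Mixed Het mouse 3).

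All 12 listed Notch and tip-cell genes were tested, and 5 fell in C57 (2 without WT mice 1 and 5), while 3 fell and 1 rose in Mixed. Dll4, a Notch ligand of tip cells and, like Esm1, known as VEGF-induced, had 26.99, 17.8, 18.3, 21.7 and 21.6 TPM in C57 WT mice 1 to 5 and ran from 8.63 to 12.5 TPM with a median of 10.2 in C57 Het. In Mixed WT it had 18.5, 22.8, 20.4, 22.8 and 23.5 TPM, and in Mixed Het it ran from 8.63 to 14.98 TPM with a median of 13.2. Het and WT libraries did not overlap on either background. The differences were -0.97 (SE 0.14, limma adjusted p = 1.89e-05) for C57 mice and, for Mixed mice, -0.79 (SE 0.14, adjusted p = 8.54e-05), and the interaction did not pass (0.17, adjusted p = 0.598). The C57 difference was -0.84 (adjusted p = 0.000671) without WT mice 1 and 5. With the endothelial score as a covariate the differences were -0.77 (adjusted p = 0.000554) and -0.80 (adjusted p = 1.64e-05).

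Unc5b, a netrin receptor of tip cells, fell by 0.60 in C57 (limma adjusted p = 0.00669), and in Mixed by 0.47 (adjusted p = 0.0248). Its C57 difference was -0.49 (adjusted p = 0.0718) without WT mice 1 and 5, and its Mixed difference -0.34 (adjusted p = 0.0643) without Het mouse 3. Hes1, a Notch target, fell from 27.8 ± 13.2 TPM to 13.9 ± 2.63 TPM in C57 (-0.85, SE 0.20, adjusted p = 0.00206), passed at -0.44 (adjusted p = 0.0412) without those WT mice, and was at -0.21 (adjusted p = 0.4) in Mixed. Of 11 tested genes of BMP and TGF-beta signalling, the pathway of Eng, 3 rose and 4 fell in C57 and 1 rose in Mixed. Het and WT libraries did not overlap in C57 for 2 of the 11, against 21% of all genes, and these went opposite ways. Smad5 was higher in Het, at 21.2 to 26.7 TPM against 14.4 to 20.1 TPM in WT. Id2 was lower in Het, at 8.09 to 12.03 TPM against 13.5 to 17.1 TPM in WT. Id1 and Id3, targets of BMP signalling, fell by 0.79 and 0.63 in C57 (adjusted p = 0.0141 and 0.0114), and Smad6, an inhibitor of the pathway, by 0.56 (adjusted p = 0.0124). Without WT mice 1 and 5 these 3 genes were at -0.35, -0.28 and -0.25 (adjusted p = 0.268, 0.183 and 0.232). Tgfbr1, a TGF-beta receptor, had an interaction of -0.60 (adjusted p = 0.0314), and -0.42 (adjusted p = 0.144) without those mice.

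**Figure D5:**
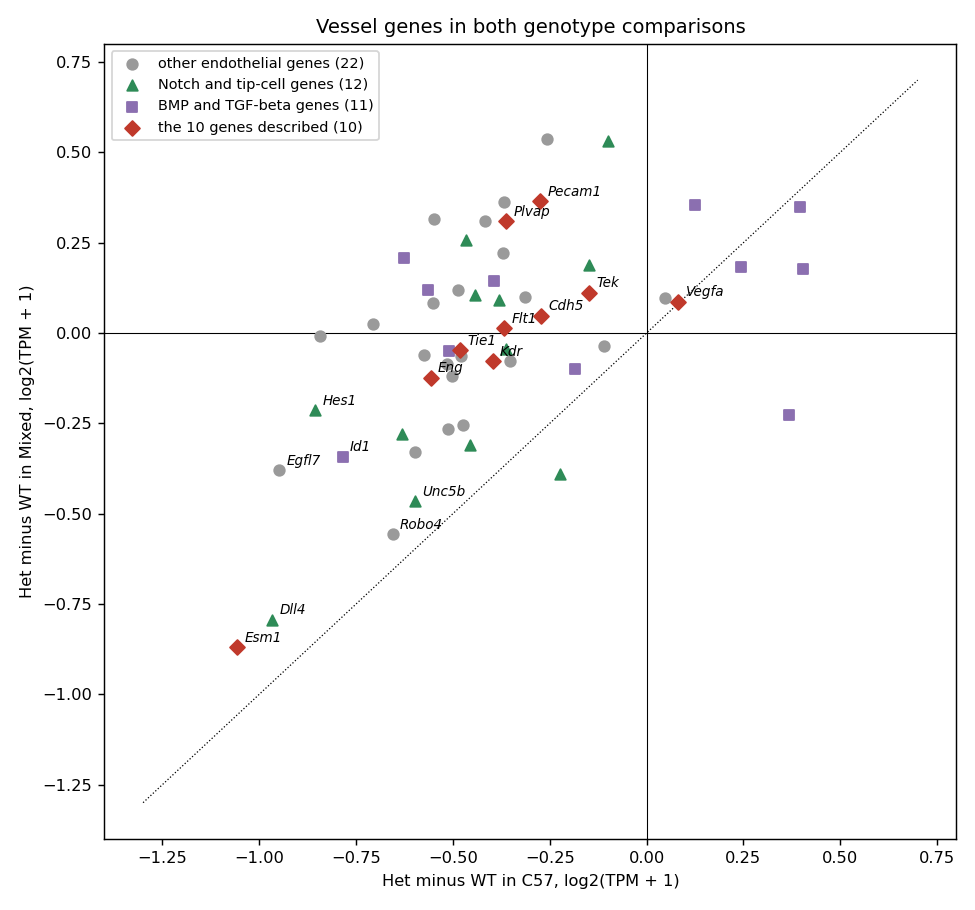
Het minus WT difference in C57 (horizontal) against that in Mixed (vertical), both in log2(TPM + 1), for the 10 genes (red diamonds), 22 other endothelial genes (grey circles), 12 Notch and tip-cell genes (green triangles) and 11 BMP and TGF-beta genes (purple squares), with the line of equality dotted. Esm1 and Dll4 lie at the lower left, at -1.06 and -0.97 in C57 and -0.87 and -0.79 in Mixed.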

How the data were processed

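The authors deposited 1 table of TPM with 57010 gene rows and 22 value columns, each summing to 1e+06, per the file headers and values. STAR 2.7.10b, MultiQC 1.7 and the mm39 build are named in the submitters' processing notes, without roles, and the counting tool and annotation are not given in the sources used here. Read depth cannot be had from TPM and is unknown here, and between 14812 and 16133 genes reached 1 TPM per library. Columns were matched to samples by name, and 0 value columns were left unused. The column names give an age range and the series design 5.5 weeks, which is used here.

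Tests used log2(TPM + 1), a scale on which changes of low genes come out too small, for the 16756 genes that reached 1 TPM in 5 or more libraries. limma 3.58.1 in R 4.3.3 fitted the 4 group means over 22 libraries with eBayes and trend, with Benjamini-Hochberg adjustment over all genes at 0.05. Every adjusted p given for a gene is from limma, and those for ratios are from two-sided exact permutation tests. The procedure was tested on simulated data. The 10 genes and all lists were chosen with earlier results of these data known. The genes named are the 10, Mafa and, per vessel list, up to 3 with the largest change among those passing in a genotype comparison and up to 2 in the interaction, besides the 5 most like Cdh5 and Vegfa. A few others, among them Robo4, Ankrd37, Smad5, Id2, C1qa and Adgre1, were named outside this rule. Alternatives were another pseudocount (0.1), no filter, a mean TPM of at least 5, 3 other scalings, fewer samples, covariates, eBayes without trend, sample weights, a fold minimum and each library left out.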

Additional observations from a re-analysis of the deposited data

Results flagged for a closer look

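In 6 of 64 combinations of a gene or ratio and a group, 1 mouse lay far from the others of its group by Dixon's criterion, which chance meets in about 1 in 20 groups. Pecam1 was 35.54 TPM in Mixed WT mouse 2, against 25.69 to 28.35 TPM in the other mice, and Eng was 58.38 TPM in the same mouse, against 51.31 to 53.1 TPM. Esm1 was 41.49 TPM in C57 Het mouse 3, against 72.95 to 91.73 TPM. Tek was 19.79 TPM in C57 WT mouse 5, against 8.925 to 11.77 TPM. Tie1 was 17.02 TPM in C57 Het mouse 2, against 20.87 to 22.64 TPM, and 19.88 TPM in Mixed Het mouse 3, against 25.98 to 29.04 TPM.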

How the results depend on the processing

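Of the 10 genes, 5 passed in C57, 1 in Mixed and 2 for Mixed against C57 in Het. In C57 the count was 2 without a filter on low values, 2 in a fit on the C57 libraries alone, 2 with an absolute log2 change of at least 0.5, 1 with sample weights (arrayWeights), 0 without WT mice 1 and 5 and 0 with the endothelial covariate. Leaving out 1 library at a time gave 1 to 5. In Mixed it was 2 in a fit on the Mixed libraries alone, 3 with the endothelial covariate and 1 in each fit with a library left out. For Mixed against C57 in Het it was 1 without a filter, 7 in a fit on the Het libraries alone, 9 with sample weights, 1 with the acinar covariate, 0 with the endothelial covariate and 1 with the fold minimum, and 0 (without Mixed Het mouse 5) to 5 (without Mixed Het mouse 3) with 1 library left out. The causes were not tested, and the shares of all genes called under these alternatives are not given here. The interaction and the comparison of WT backgrounds stayed at 0 in every alternative run. The endothelial covariate and the removal of both WT mice were chosen after seeing the data. Over single genes and alternatives, 1057 of 1230 differences stayed on their side of the threshold with the same sign, 54 no longer passed, 22 newly passed, and 97 that had not passed changed sign. Most of the 1230 had not passed at the start, so this count says little about the calls. Of 23 alternatives in C57, Tie1 passed in 9, Kdr and Flt1 in 14 each, Eng in 19 and Esm1 in 21. In Mixed, Esm1 passed in 22 of 22. No called difference reversed. Depth is unknown, so what it limits could not be assessed. No paired analysis was possible because the labels give no replicate numbers shared between groups.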

Other observations

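Genes that restrain vessel growth were listed apart from the genes above, and 9 of 12 were tested. In C57 1 rose and 1 fell, and in Mixed 5 rose and 1 fell by limma, beside 26.4% and 30.7% of all genes that rose and 11.6% and 13.5% that fell. Sema3e, a repulsive guidance ligand for vessels, rose from 0.982 ± 0.430 TPM to 2.81 ± 0.156 TPM in C57 (adjusted p = 1.3e-05) and from 0.761 ± 0.194 TPM to 2.26 ± 0.479 TPM in Mixed (adjusted p = 1.84e-05), without overlap on either background. Col18a1, the precursor of endostatin, rose by 1.43 in Mixed (adjusted p = 5.45e-05) and Serpinf1, which encodes PEDF, by 1.24 (adjusted p = 0.00327). The interaction passed for Col18a1 at 1.25 (adjusted p = 0.0273), and was at 1.06 (adjusted p = 0.117) without C57 WT mice 1 and 5. Mesenchymal markers moved with these genes, with 7 of 7 tested higher in Mixed Het and sums of 19.8 to 49.6 TPM in Mixed WT against 50.7 to 370.5 TPM in Mixed Het, and their part in the result was not tested.

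Of 15 tested hypoxia-response genes of 18 listed, 5 rose and 1 fell in C57, and 5 rose and 4 fell in Mixed by limma. Of all genes tested 26.4% rose in C57 and 30.7% in Mixed, and 11.6% and 13.5% fell. Ero1a, an oxidase of the endoplasmic reticulum, rose from 15.3 ± 3.67 TPM to 30.3 ± 3.58 TPM in C57 without overlap (adjusted p = 2.17e-05, and 0.000556 without WT mice 1 and 5), and was at 0.26 (adjusted p = 0.128) in Mixed. Pgk1, a glycolytic enzyme, rose on both backgrounds, by 0.52 log2 units in C57 and 0.84 in Mixed (adjusted p = 0.0035 and 2.45e-05). Without C57 WT mice 1 and 5 its C57 difference was 0.30 (adjusted p = 0.0644) and no longer passed. Egln3, an oxygen-sensing hydroxylase, rose by 0.78 in Mixed (adjusted p = 0.0389) and was at 0.45 (adjusted p = 0.0771) without Het mouse 5. Ankrd37 went the other way, with means of 38.57 TPM in WT and 22.09 TPM in Het in C57. In Mixed its means were 30.39 TPM in WT and 17.96 TPM in Het. Its Het and WT libraries overlapped narrowly on both backgrounds. The interaction passed for Pfkfb3, a glycolytic regulator, at 0.96 (adjusted p = 0.0163), and for Ndrg1 at -0.94 (adjusted p = 0.0247). Without C57 WT mice 1 and 5 they were at 0.72 and -0.78 (adjusted p = 0.0616 and 0.112).

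Of 6 listed lymphatic endothelial markers 3 were tested, and 2 rose and 1 fell in C57, while 1 rose and 1 fell in Mixed. The shares over all genes were those given for the hypoxia-response genes. Prox1, a transcription factor of lymphatic endothelium that endocrine cells also express, rose from 18.3 ± 4.71 TPM to 40.1 ± 3.09 TPM in C57 (limma adjusted p = 1.43e-05) and from 21.00 ± 3.24 TPM to 36.7 ± 8.57 TPM in Mixed (adjusted p = 0.000503), without overlap in either. Reln, a secreted glycoprotein, rose from 0.161 ± 0.0515 TPM to 2.30 ± 0.487 TPM in C57 without overlap (adjusted p = 3.39e-08), was at 0.01 (adjusted p = 0.97) in Mixed, and had an interaction of -1.49 (adjusted p = 0.000267). Lyve1, a hyaluronan receptor of lymphatic endothelium and some macrophages, fell by 0.77 and 0.65 log2 units in C57 and Mixed (adjusted p = 0.000991 and 0.00285). Each of these C57 calls passed without WT mice 1 and 5 too, with adjusted p-values of 6.24e-05 for Prox1, 1.58e-06 for Reln and 0.00524 for Lyve1.

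Pericyte markers fell for 6 of 12 genes in C57, and for 1 without WT mice 1 and 5, and rose for 2 in Mixed. The shares over all genes were again those given for the hypoxia-response genes. The share without WT mice 1 and 5 is not given here. Tagln and Acta2, contractile genes of mural cells, fell by 1.06 and 0.93 in C57 (adjusted p = 0.00311 and 0.00612) and were at -0.65 and -0.60 (adjusted p = 0.0396 and 0.0865) without those mice. Mcam fell by 0.64 in C57 (adjusted p = 0.0276) and was at -0.23 (adjusted p = 0.442) without them. The interaction passed for Tagln at 1.27 (adjusted p = 0.0401) and for Acta2 at 1.19 (adjusted p = 0.0439), and without those mice they were at 0.85 and 0.86 (adjusted p = 0.114 and 0.151).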
